A study of Mus musculus with 4 samples.

Results

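The genes described here are 9 members of the insulin-like growth factor (IGF) and insulin signalling system, chosen by symbol from the 25906 genes that each count matrix lists: the ligand Igf1 (ENSMUSG00000020053), the receptors Igf1r (ENSMUSG00000005533) and Insr (ENSMUSG00000005534), the adaptors Irs1 (ENSMUSG00000055980) and Irs2 (ENSMUSG00000038894), and the secreted binding proteins Igfbp3 (ENSMUSG00000020427), Igfbp4 (ENSMUSG00000017493), Igfbp5 (ENSMUSG00000026185) and Igfbp7 (ENSMUSG00000036256). All 9 were detected, with 2115 UMIs (Igfbp3) to 54404 UMIs (Igf1r) in kept nuclei. They are described by cell class in single-nucleus RNA sequencing of mouse ventricles that crossed voluntary wheel running with myocardial infarction.

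IGF1 and insulin bind closely related receptor tyrosine kinases, IGF1R and INSR, which phosphorylate the adaptor proteins IRS1 and IRS2; these recruit phosphoinositide 3-kinase and so switch on the kinase AKT, which favours glucose uptake, protein synthesis and survival and holds FOXO transcription factors out of the nucleus. In blood and tissue most IGF1 is bound to IGFBP proteins, which store it, carry it and control its access to the receptor. In the heart the pathway is known for its part in the physiological growth of cardiomyocytes with exercise, and locally made IGF1 is known to come from fibroblasts and macrophages.

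All mice were wild-type C57BL/6J of both sexes and 8 weeks old at the start. The running infarct group ran on a wheel for 16 weeks and was collected 2 weeks after infarct surgery (4 hearts), the sedentary infarct group had the same surgery without running (4 hearts), the running group ran for 16 weeks without surgery (2 hearts) and the sedentary group had neither (2 hearts). No sham operation is named in the labels, so surgery and infarct cannot be told apart here, and infarcted hearts were also collected 2 weeks later than the others. The hearts of a group were pooled, their frozen ventricles homogenised, nuclei sorted on the DNA stain Hoechst and loaded in 1 well, so each group is 1 library (n = 1), no difference was tested, and all values describe these 4 libraries. Zones of the heart (scar, border, remote) were not separated.

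The running infarct, sedentary infarct, running and sedentary libraries held 4922, 3243, 6253 and 5388 barcodes and 29916572, 26170995, 37533722 and 32899707 UMIs, and 4711, 3124, 5832 and 5114 nuclei were kept. Libraries shared 2 to 12 barcodes per pair. Of the kept nuclei, 14652 fell into 8 classes with at least 50 nuclei in every library, each named "-like" from marker genes: cardiomyocyte-, fibroblast-, macrophage-, smooth muscle-, mesothelial-, vascular endothelial-, endocardial- and lymphatic endothelial-like. The cardiomyocyte-like nuclei had all 10 markers of their list detected and a summed marker level between 65930 and 67694 CPM. The same list named them, so this is no separate check of their identity. The smooth muscle-like class held pericytes as well as smooth muscle, and its pericyte list summed above its smooth muscle list in every library. In running infarct, sedentary infarct, running and sedentary nuclei the pericyte list summed to 5573, 7609, 6941 and 6972 CPM. The smooth muscle list summed to 4641, 3342, 4869 and 3745 CPM. Finer clustering named 393 nuclei pericyte-like and 152 smooth muscle-like. At least 2 Y-linked UMIs were found in 16.7, 16.4, 35.7 and 32.0% of named nuclei, so the libraries differ in the sex of their nuclei; within a pool, a heart's nuclei carry no other tag. Levels are CPM, the UMIs of a gene per 1000000 UMIs of its class and library, without mitochondrially encoded genes. Ranges in brackets after a ratio are 95% intervals of counting error; spread between animals is not part of them. A member counts as higher or lower in a class when its CPM ratio is at least 1.5-fold, with at least 100 UMIs over both libraries and 100 nuclei in each. The assay reads 3' ends of nuclear RNA with no length scaling, so levels are compared between classes and libraries for 1 gene and never between genes.

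**Figure D1:**
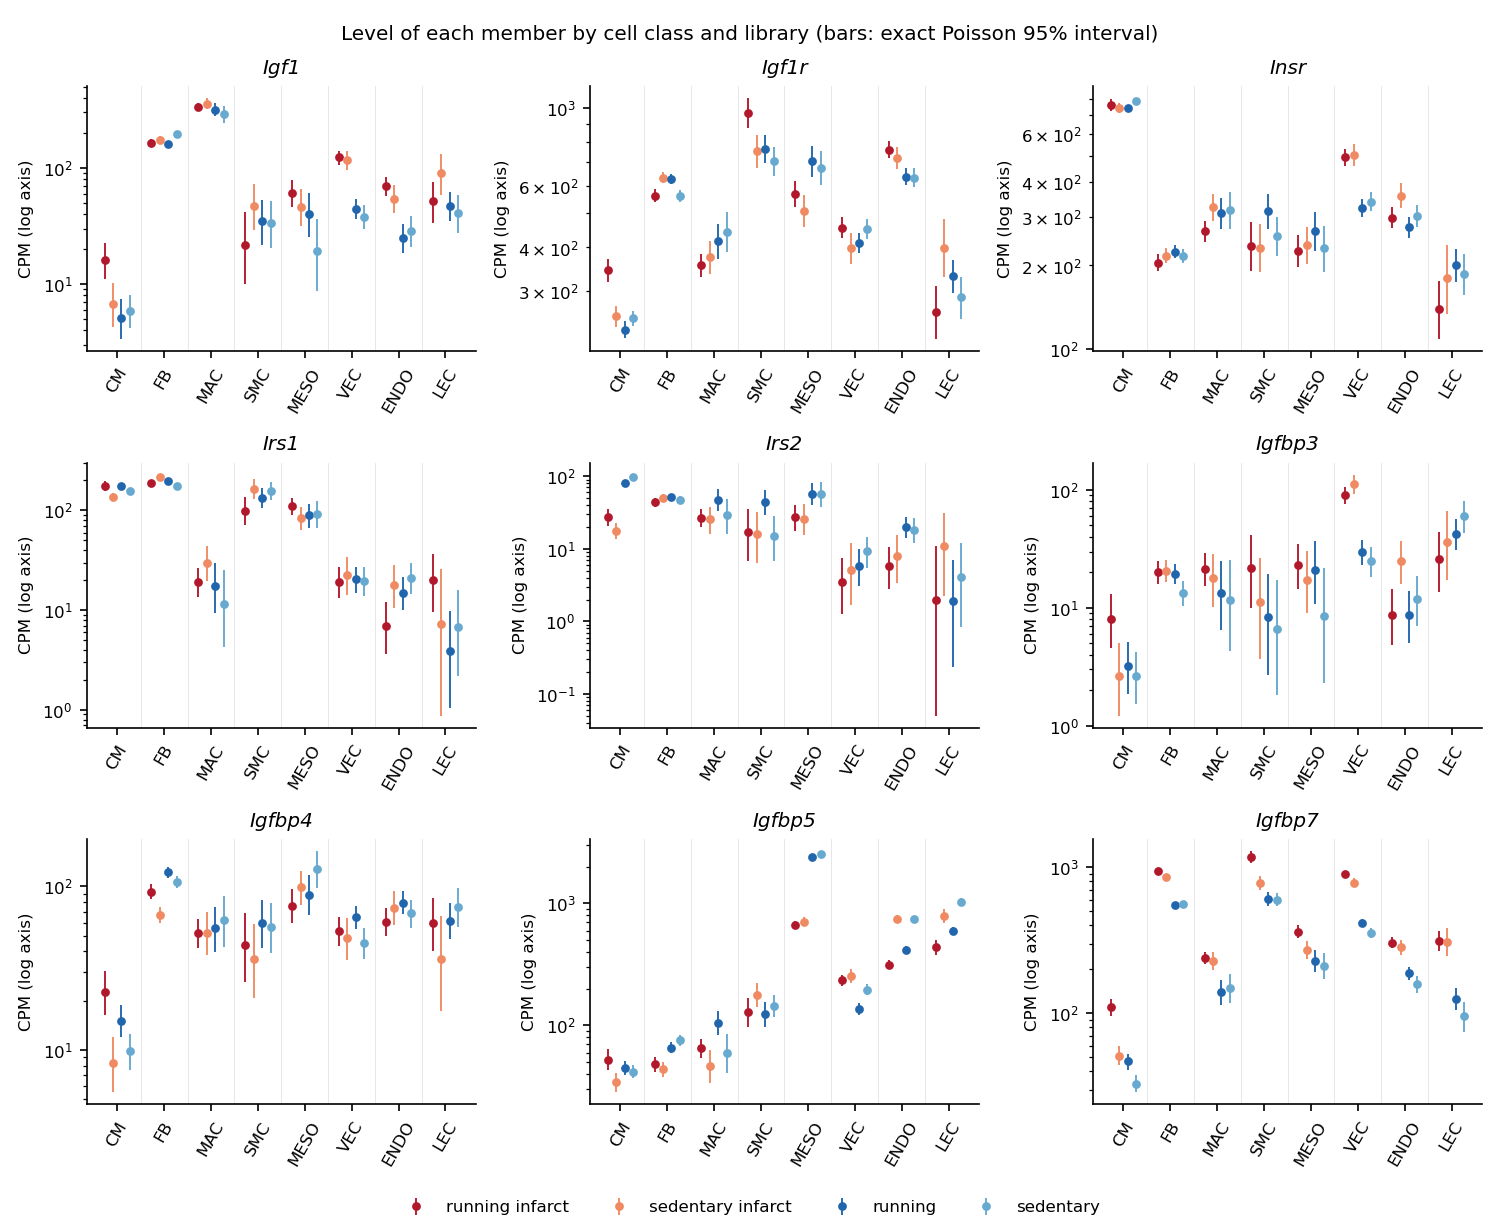
Level of each member (CPM, log axis) in cardiomyocyte- (CM), fibroblast- (FB), macrophage- (MAC), smooth muscle- (SMC), mesothelial- (MESO), vascular endothelial- (VEC), endocardial- (ENDO) and lymphatic endothelial-like (LEC) nuclei; each point is 1 library and its bar the exact Poisson 95% interval. Igf1 was highest in macrophage-like nuclei, Insr in cardiomyocyte-like nuclei and Igfbp5 in mesothelial-like nuclei, and the infarct and non-infarct points separate in each class for Igfbp7.

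The ligand gene Igf1, which encodes IGF1, was highest in macrophage-like nuclei, with 336 CPM in running infarct, 358 in sedentary infarct, 318 in running and 290.1 in sedentary nuclei. Fibroblast-like nuclei came next, with 162 CPM in running infarct, 175 in sedentary infarct, 159 in running and 194 in sedentary nuclei. The 2 classes did not overlap in any library, and neither overlapped the vascular endothelial-like nuclei below them. After thinning each nucleus to 1000 UMIs, the share of macrophage-like nuclei with an Igf1 UMI was 20.4% in running infarct, 24.7% in sedentary infarct, 19.9% in running and 21.7% in sedentary nuclei. In the cardiomyocyte-like class, where the level was lowest, it was 1.93% in running infarct, 1.46% in sedentary infarct, 0.316% in running and 0.398% in sedentary nuclei. The lymphatic endothelial-, endocardial-, mesothelial- and smooth muscle-like classes overlapped one another between 19.1 and 90.0 CPM, and cardiomyocyte-like nuclei stood below all of them at 5.09 to 16.0 CPM. In macrophage-like nuclei the 4 libraries kept within 1.5-fold of one another. Split more finely, a macrophage cluster led by F13a1, Vsig4 and Timd4, genes of resident macrophages, had 432 CPM in running infarct, 475 in sedentary infarct, 411 in running and 367 in sedentary nuclei, and a cluster led by Ccr2, the receptor of recruited monocytes, had 330.0 CPM in running infarct, 264 in sedentary infarct, 361 in running and 179.7 in sedentary nuclei. That second cluster stayed unnamed at this resolution, because its leading genes held Ccr2, a monocyte marker on the lists used, and no macrophage marker. Its mean log2 excess was 3.74 for the macrophage and 3.39 for the dendritic cell markers. The macrophage-like class held 693, 258, 223 and 162 nuclei in the running infarct, sedentary infarct, running and sedentary libraries. Read over the whole ventricle, a higher ligand level in a macrophage and a larger number of macrophages cannot be told apart, but these values are per UMI of the class.

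Igf1 differed with infarction in vascular endothelial- and endocardial-like nuclei. In lymphatic endothelial-like nuclei it ran from 40.8 CPM in sedentary to 90.0 in sedentary infarct nuclei, with both libraries of mice that had run between them. Cardiomyocyte-like nuclei, the class lowest in Igf1, ran from 5.09 CPM in running to 16.0 in running infarct nuclei. Their thinned share was also higher in both infarct libraries. Mesothelial-like nuclei ran from 19.1 CPM in sedentary to 60.5 in running infarct nuclei. Higher Igf1 after infarction was thus not particular to endothelial nuclei. Vascular endothelial-like nuclei carried 123 CPM in running infarct, 117 in sedentary infarct, 44.5 in running and 37.8 in sedentary nuclei, and both infarct libraries lay above both others. Igf1 there was 2.76-fold higher (2.17 to 3.54) in the running infarct than in the running library and 3.09-fold higher (2.28 to 4.20) in the sedentary infarct than in the sedentary library. In endocardial-like nuclei, which line the chambers, Igf1 had 69.7 CPM in running infarct, 54.5 in sedentary infarct, 25.02 in running and 28.9 in sedentary nuclei, and the running infarct library was 2.78-fold higher (1.98 to 3.97) than the running one. In the main endocardial cluster, led by Nrg1 and Npr3, it had 73.5 CPM in running infarct, 50.4 in sedentary infarct, 18.7 in running and 11.5 in sedentary nuclei, while a small cluster led by Calcr and Wnt9b did not follow that order, with 31.8 CPM in running infarct, 85.0 in sedentary infarct, 45.3 in running and 66.2 in sedentary nuclei. The UMIs were unevenly spread: the 10 richest nuclei held 41.0% in running infarct, 53.5% in sedentary infarct, 34.0% in running and 35.6% in sedentary nuclei of the vascular endothelial-like Igf1 UMIs. The highest level was in a cluster led by Lhx6, Stc1 and Col13a1, with 228 CPM in running infarct, 185 in sedentary infarct, 87.0 in running and 56.2 in sedentary nuclei. The larger cluster led by the capillary gene Car4 had less, with 66.5 CPM in running infarct, 62.0 in sedentary infarct, 20.7 in running and 35.8 in sedentary nuclei, and the same order of infarct over non-infarct libraries. Within that larger cluster the sedentary infarct ratio was 0.79 on the log2 scale, against 1.63 over the whole class, and with each library clustered alone the running infarct ratio was 0.54, under 1.5-fold. The macrophage marker list, summed in vascular endothelial-like nuclei, was 348 CPM in running infarct, 297 in sedentary infarct, 324 in running and 349.8 in sedentary nuclei, a sum that did not separate the infarct from the other libraries. Of its 10 markers, 8 were higher in the running and 5 in the sedentary comparison. The marker list of fibroblasts, the other class rich in Igf1, was 1358 CPM in running infarct, 1472 in sedentary infarct, 1627 in running and 1596 in sedentary nuclei. Other transcripts did move with Igf1 there, Col1a1 in running and sedentary mice and the pericyte list mainly in running mice. The fibroblast transcript Col1a1 had 179 CPM in running infarct, 162 in sedentary infarct, 30.7 in running and 26.4 in sedentary nuclei, and the pericyte list summed to 235 CPM in running infarct, 189.6 in sedentary infarct, 133 in running and 177 in sedentary nuclei, with 8 of its 9 markers higher in the running and 5 in the sedentary comparison. Their part in the result was not tested. In endocardial-like nuclei the macrophage list summed to 284 CPM in running infarct, 235 in sedentary infarct, 272 in running and 227 in sedentary nuclei. Col1a1 there had 105 CPM in running infarct, 156 in sedentary infarct, 26.0 in running and 19.7 in sedentary nuclei. The whole fibroblast list summed to 1456, 1789, 1589 and 1735 CPM in the same order, and the pericyte list to 163, 205, 123 and 126 CPM. The part of these transcripts in endocardial-like Igf1 was not tested.

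**Figure D2:**
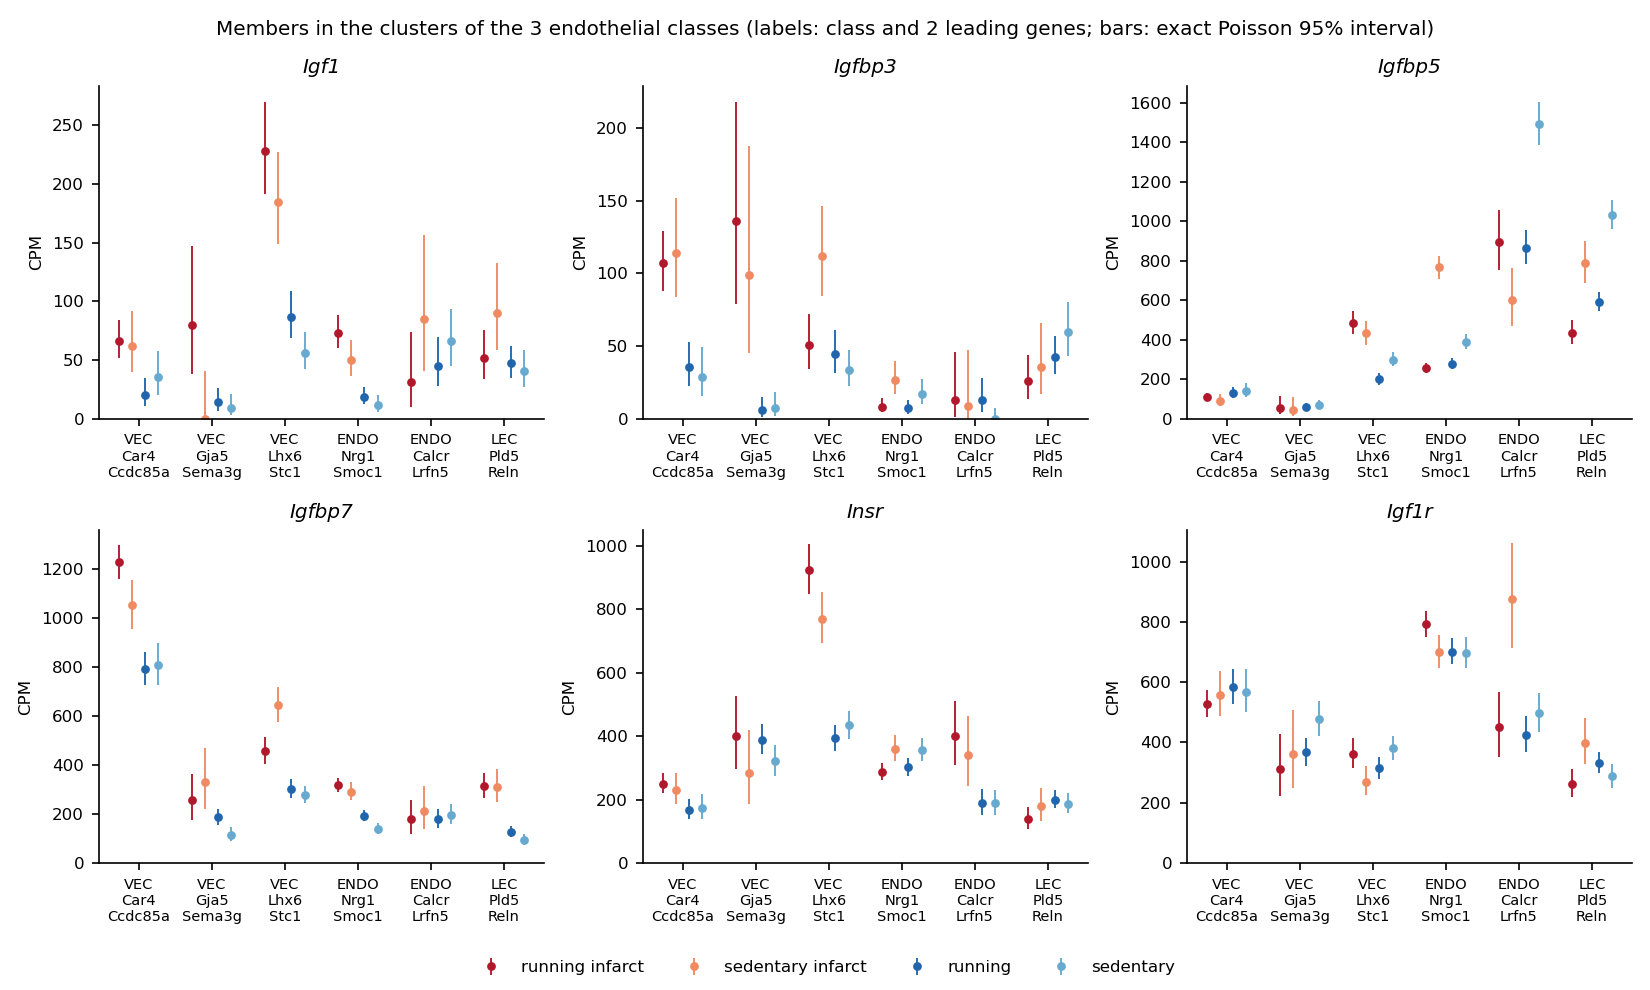
Levels (CPM) of 6 members in the clusters that make up the vascular endothelial- (VEC), endocardial- (ENDO) and lymphatic endothelial-like (LEC) classes, each named on the axis by its leading genes; points are libraries and bars exact Poisson 95% intervals. Igf1 and Insr stood highest in the Lhx6-led cluster after infarction, at 228 and 923 CPM in the running infarct library, and Igfbp3 was above its non-infarct levels in all 3 vascular clusters.

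The receptor genes were spread more evenly. Igf1r, the receptor for IGF1, was highest in smooth muscle-like nuclei, with 968 CPM in running infarct, 753 in sedentary infarct, 765 in running and 704 in sedentary nuclei, and lowest in cardiomyocyte-like nuclei, with 344 CPM in running infarct, 255 in sedentary infarct, 233 in running and 251 in sedentary nuclei, a range that the lymphatic endothelial-like one overlapped. The smooth muscle-, endocardial-, mesothelial- and fibroblast-like classes each overlapped the next between 508.3 and 968 CPM and lay above the vascular endothelial-like range in every library. Split more finely, the smooth muscle-like nuclei proper had 1496 CPM in running infarct, 944 in sedentary infarct, 973 in running and 843 in sedentary nuclei and the pericyte-like nuclei 543 CPM in running infarct, 676 in sedentary infarct, 663 in running and 706 in sedentary nuclei, and the class level mixes both. None of the Igf1r ratios counted over a whole class reached 1.5-fold in any comparison. The nearest was in cardiomyocyte-like nuclei, where the running infarct library exceeded the running library at a ratio of 1.48 (95% interval 1.35 to 1.63), while the sedentary infarct over sedentary ratio was 1.01 (95% interval 0.931 to 1.10).

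Insr, the insulin receptor gene, was a cardiomyocyte-rich transcript, with 762 CPM in running infarct, 745 in sedentary infarct, 741 in running and 786 in sedentary nuclei. Those levels differed by less than 1.5-fold across running and infarction, and no other class overlapped them. Vascular endothelial-like nuclei followed with 492 CPM in running infarct, 502 in sedentary infarct, 323 in running and 341 in sedentary nuclei, higher in both infarct libraries. The running infarct library was 1.52-fold higher (1.38 to 1.68) than the running one, past 1.5-fold by a narrow margin, and the sedentary infarct ratio of 1.47 (95% interval 1.31 to 1.66) fell short of it. Here too the Lhx6-led cluster carried most, with 923 CPM in running infarct, 771 in sedentary infarct, 393 in running and 434 in sedentary nuclei, against 250.1 CPM in running infarct, 231 in sedentary infarct, 167 in running and 174 in sedentary nuclei in the Car4-led cluster. The Car4-led cluster, lower in Insr, made up 73.4% of the class in the running infarct library and 46.2% in the running library. Within it, and over the class at finer clustering, the log2 ratio was 0.58, just under 1.5-fold. Averaged over nuclei the running infarct ratio was 0.25 on the log2 scale, and with each library clustered alone it turned to -0.22.

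The adaptor genes differed from each other. Irs1, the adaptor best known from insulin action in muscle, was found in fibroblast-like nuclei with 189 CPM in running infarct, 214 in sedentary infarct, 196 in running and 176 in sedentary nuclei and in cardiomyocyte-like nuclei with 176 CPM in running infarct, 136 in sedentary infarct, 175 in running and 155 in sedentary nuclei, and in all 3 endothelial classes at no more than 22.5 CPM. The infarct ratios of Irs1 stayed within 1.5-fold in every class counted. In smooth muscle-like nuclei, where Irs1 had 99.4 CPM in running infarct, 165 in sedentary infarct, 134 in running and 157 in sedentary nuclei, the running infarct library was 1.65-fold lower (1.11 to 2.49) than the sedentary infarct one, on 41 and 73 UMIs, with a log2 ratio of -0.35 when averaged over nuclei.

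Irs2, known in mouse liver as a gene that FOXO factors induce and insulin represses, gave the member difference with the largest fold. In cardiomyocyte-like nuclei it had 27.5 CPM in running infarct, 17.7 in sedentary infarct, 81.6 in running and 97.0 in sedentary nuclei, from 55 UMIs in running infarct, 60 in sedentary infarct, 433 in running and 624 in sedentary nuclei. Both infarct libraries lay below both others, with no overlap of their counting intervals. Irs2 was 2.96-fold lower (2.24 to 4.00) in the running infarct than in the running library and 5.48-fold lower (4.20 to 7.27) in the sedentary infarct than in the sedentary library. Thinned to 1000 UMIs, the share of cardiomyocyte-like nuclei with an Irs2 UMI was 2.25% in running infarct, 2.05% in sedentary infarct, 6.17% in running and 7.30% in sedentary nuclei. In vascular endothelial-like nuclei, which served as background, it was 0.809% in running infarct, 0.656% in sedentary infarct, 0.384% in running and 0.994% in sedentary nuclei. The share was above that background in each library, and nearer to it in the infarct libraries. In the running infarct library 10 nuclei held 58.2% of the Irs2 UMIs of the class, against 13.3% in the sedentary library.

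The lower level of Irs2 after infarction was present in each set of cardiomyocyte-like nuclei examined. The deep cluster, led by Nmrk2, had 29.8 CPM in running infarct, 17.7 in sedentary infarct, 81.6 in running and 97.0 in sedentary nuclei, and the shallow cluster led by Nppa, the stress-induced natriuretic peptide gene, had 14.0 CPM in running infarct, 17.2 in sedentary infarct, 81.6 in running and 93.5 in sedentary nuclei. The shallow cluster made up 48.8% of the class in the running infarct library, 20.1% in the sedentary infarct, 14.3% in the running and 10.95% in the sedentary library, and the median depth of the class was 3646, 9557, 8521 and 8421.5 UMIs, so depth was low in the running infarct library alone. Y-positive nuclei had 15.9 CPM in running infarct, 6.80 in sedentary infarct, 81.1 in running and 87.2 in sedentary nuclei, and nuclei without a Y-linked UMI had 27.2 CPM in running infarct, 23.3 in sedentary infarct, 84.1 in running and 107 in sedentary nuclei. Libraries also differed in mitochondrial UMIs; in nuclei with at most 5% of them Irs2 had 30.3 CPM in running infarct, 20.9 in sedentary infarct, 90.6 in running and 95.2 in sedentary nuclei. Over the alternatives that gave a ratio, the log2 ratio ran from -1.86 to -1.44 in the running comparison and from -2.47 to -2.18 in the sedentary one. The limit of 5% mitochondrial UMIs gave a ratio in the sedentary comparison only. Those ranges also leave out the shallow cluster and the Y-positive nuclei, of which the infarct libraries held only 50 and 83. Levels of Y-positive nuclei lay further apart between infarct and other libraries than these ranges. Outside cardiomyocytes Irs2 differed by less than 1.5-fold between libraries in fibroblast-like nuclei, with 43.7 CPM in running infarct, 49.9 in sedentary infarct, 51.0 in running and 46.8 in sedentary nuclei. Mesothelial-like nuclei had 27.1 CPM in running infarct, 26.1 in sedentary infarct, 57.7 in running and 57.3 in sedentary nuclei, on fewer than 100 UMIs per comparison, so that class was not counted.

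Promoter sequence is shown for both adaptors, since 1 of them differed with infarction and the other did not. Each window runs from 250 bases before to 50 bases after the annotated start, RefSeq on GRCm38.p6, a build other than that of the counts, 5′ to 3′ on the gene's strand. For Irs2 it is chr8:11008880-11009179, minus strand, and for Irs1 chr1:82291390-82291689, minus strand. Capitals mark matches on either strand to the E-box CACGTG, the GC box GGGCGG or the insulin response element core TGTTTTG.
Irs2: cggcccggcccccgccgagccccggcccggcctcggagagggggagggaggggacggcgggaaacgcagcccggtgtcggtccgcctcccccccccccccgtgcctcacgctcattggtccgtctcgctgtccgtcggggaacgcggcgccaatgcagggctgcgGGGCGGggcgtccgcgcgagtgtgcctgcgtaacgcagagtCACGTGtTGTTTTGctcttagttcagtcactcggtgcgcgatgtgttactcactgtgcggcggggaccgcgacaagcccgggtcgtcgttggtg
Irs1: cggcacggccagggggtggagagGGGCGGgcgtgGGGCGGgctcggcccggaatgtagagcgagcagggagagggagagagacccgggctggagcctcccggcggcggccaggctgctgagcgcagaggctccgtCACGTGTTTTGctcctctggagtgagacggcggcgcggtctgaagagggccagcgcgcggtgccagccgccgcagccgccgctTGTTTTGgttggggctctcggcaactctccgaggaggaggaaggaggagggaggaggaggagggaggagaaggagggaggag
Both windows were rich in G and C, at 72.0% for Irs2 and 71.3% for Irs1, against a median of 52.7% over 32851 windows. Each held 1 E-box, which 7.15% of all windows hold. TGTTTTG occurred 1 time in Irs2 and 2 times in Irs1, where 1 match overlaps the E-box, and it is held by 6.28% of all windows. The forkhead core TGTTTAC was in neither, and 3.65% of all windows hold it. A GC box, present in 35.7% of windows, occurred 1 time in Irs2 and 2 times in Irs1. These matches are letters in a window, not binding sites, and they do not tell the adaptors apart by kind of motif.

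**Figure D3:**
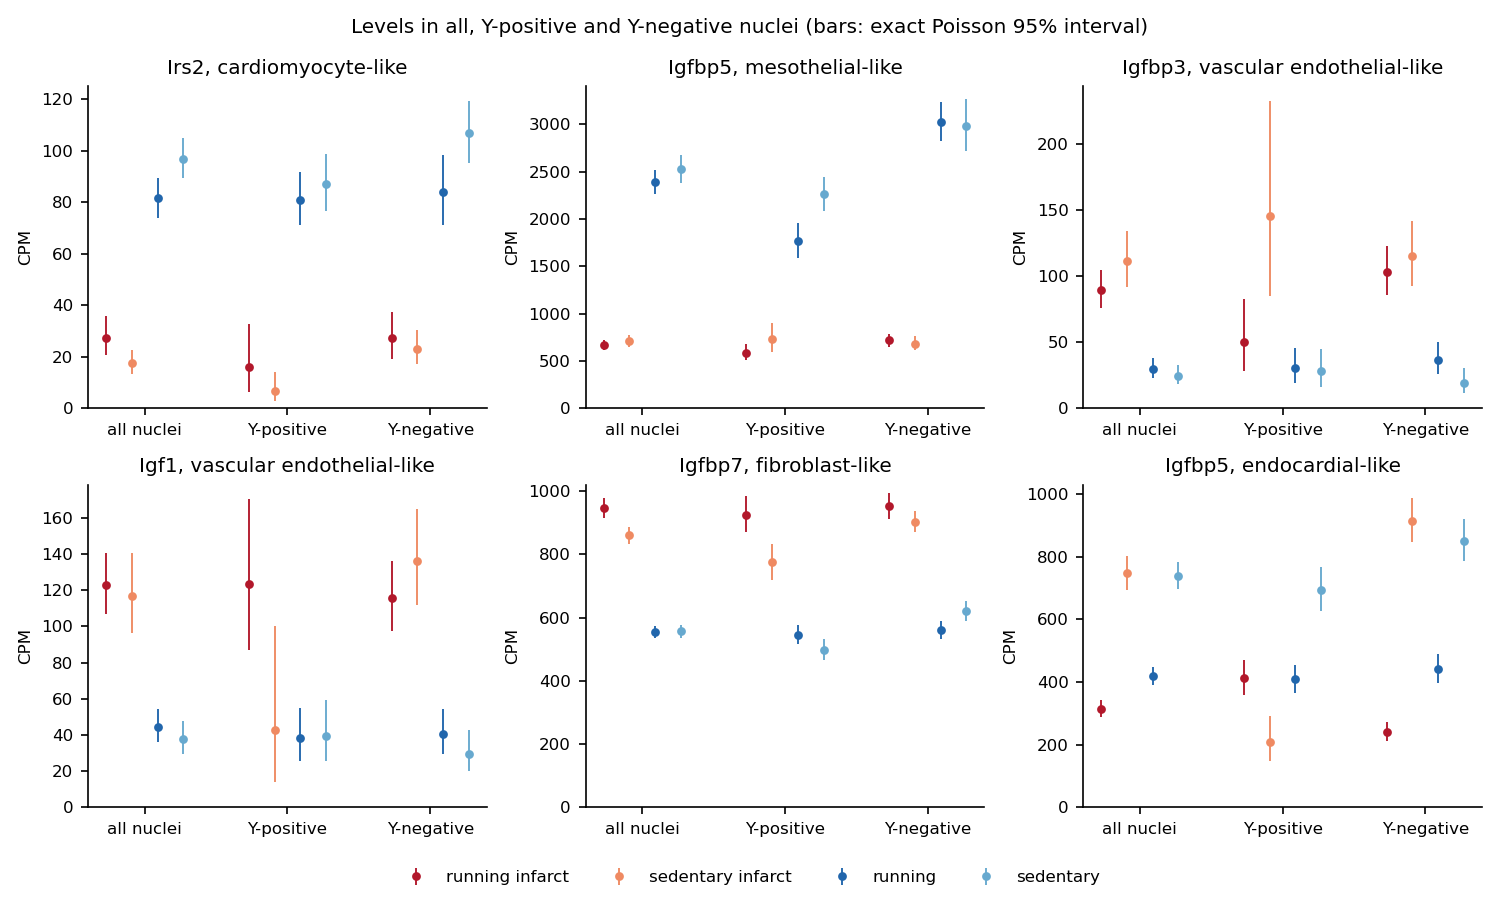
Levels (CPM) of 6 member and class pairs in all nuclei, in Y-positive nuclei (2 or more UMIs from 4 Y-linked genes) and in Y-negative nuclei (0 such UMIs), with 1 point per library and exact Poisson 95% intervals. Irs2 in cardiomyocyte-like and Igfbp5 in mesothelial-like nuclei stood lower in the infarct libraries in every set, while the order of the running infarct and sedentary infarct points for endocardial-like Igfbp5 turned in Y-positive nuclei.

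Among the binding proteins, Igfbp7 differed with infarction in the most classes. IGFBP7 binds IGF weakly, is secreted, and is known as a marker of stressed and senescent cells and of vessels. Fibroblast-like nuclei had 947 CPM in running infarct, 860.5 in sedentary infarct, 555 in running and 557 in sedentary nuclei, smooth muscle-like nuclei had 1176 CPM in running infarct, 782 in sedentary infarct, 607 in running and 599 in sedentary nuclei, and vascular endothelial-like nuclei had 892 CPM in running infarct, 783 in sedentary infarct, 414 in running and 354 in sedentary nuclei. In all 8 classes both infarct libraries lay above both others. The running infarct library was at least 1.5-fold higher than the running one in 8 of 8 classes, from 1.59-fold higher (1.29 to 1.95) in mesothelial-like to 2.48-fold higher (1.96 to 3.16) in lymphatic endothelial-like nuclei. The sedentary infarct library was past 1.5-fold over the sedentary one in 5 of 7 classes, with the largest ratio in vascular endothelial-like nuclei, 2.21-fold higher (1.99 to 2.46). In running mice the ratio stayed past 1.5-fold under every alternative that gave a value in cardiomyocyte-, lymphatic endothelial-, mesothelial-, smooth muscle- and vascular endothelial-like nuclei, and in sedentary mice in none of the 5 classes. The limit of 5% mitochondrial UMIs gave a ratio in running mice only in fibroblast- and vascular endothelial-like nuclei. The other classes were not read under it there. In the running infarct library 43.4% of vascular endothelial-like nuclei had an Igfbp7 UMI after thinning, with 41.3% in the sedentary infarct, 23.3% in the running and 22.3% in the sedentary library.

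Several measurements moved with Igfbp7, and their part in the result was not tested. Barcodes with over 5% mitochondrial UMIs, a sign of RNA quality, made up 44.0, 45.4, 91.7 and 65.5% of the running infarct, sedentary infarct, running and sedentary libraries. Under a limit of 5% the infarct log2 ratio of Igfbp7 in fibroblast-like nuclei was 0.36 in running and 0.63 in sedentary mice, and in vascular endothelial-like nuclei 1.73 and 1.501. Cardiomyocyte-like nuclei had 109.6 CPM in running infarct, 51.3 in sedentary infarct, 46.7 in running and 32.9 in sedentary nuclei, and the collagen gene Col1a1, a fibroblast transcript, had 82.1 CPM in running infarct, 58.6 in sedentary infarct, 9.24 in running and 10.1 in sedentary nuclei there. The whole fibroblast list summed to 738 CPM in running infarct, 530.3 in sedentary infarct, 606 in running and 493 in sedentary nuclei in that class and did not separate the infarct from the other libraries, with 6 of 10 markers higher in the running and 4 of 10 in the sedentary comparison. In vascular endothelial-like nuclei Col1a1 was also higher in both infarct libraries, while the cardiomyocyte transcript Ttn was lower, with 825 CPM in running infarct, 830.1 in sedentary infarct, 1184 in running and 1464 in sedentary nuclei. The nuclei left unnamed moved the same way, with 1094 CPM in running infarct, 841 in sedentary infarct, 596 in running and 445 in sedentary nuclei in the low-depth cluster and 653 CPM in running infarct, 527 in sedentary infarct, 332 in running and 306 in sedentary nuclei in mixed clusters. Class make-up shifted too. The fibroblast cluster led by Col11a1, Col12a1 and Cthrc1, an activated matrix-producing profile, held 511, 330, 28 and 20 nuclei in the running infarct, sedentary infarct, running and sedentary libraries. Igfbp7 in that cluster had 1026 CPM in running infarct, 951 in sedentary infarct, 446 in running and 683 in sedentary nuclei. The resting cluster led by Fgf10 and Col6a6 had 763 CPM in running infarct, 731 in sedentary infarct, 565 in running and 557 in sedentary nuclei, where the log2 ratios were 0.43 in the running and 0.39 in the sedentary comparison, both under 1.5-fold. Among vascular endothelial-like nuclei the Car4-led cluster, rich in Igfbp7, had 1227 CPM in running infarct, 1051 in sedentary infarct, 790.2 in running and 809 in sedentary nuclei, and the Lhx6-led cluster 457 CPM in running infarct, 644 in sedentary infarct, 302 in running and 277 in sedentary nuclei. Within the Car4-led cluster the sedentary infarct ratio was 0.38 on the log2 scale, against 1.15 over the class. In cardiomyocyte-like nuclei of sedentary mice the log2 ratio was 0.64 and ran from 0.12 to 0.98 over the alternatives that gave a value. Split more finely, pericyte-like nuclei had 805 CPM in running infarct, 777 in sedentary infarct, 465 in running and 505 in sedentary nuclei, with both infarct libraries above both others. Smooth muscle-like nuclei proper had 1548 CPM in running infarct, 659.7 in sedentary infarct, 961 in running and 935 in sedentary nuclei, where the sedentary infarct library was the lowest. At finer clustering the Ccr2-rich macrophages stayed unnamed, and the macrophage-like ratio in running mice turned to -0.18 on the log2 scale.

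Igfbp3, the main carrier of IGF1 in blood, was highest in vascular and lymphatic endothelial-like nuclei. Vascular endothelial-like nuclei had 89.9 CPM in running infarct, 112 in sedentary infarct, 29.8 in running and 24.9 in sedentary nuclei, and lymphatic endothelial-like nuclei 25.8 CPM in running infarct, 36.0 in sedentary infarct, 42.4 in running and 59.8 in sedentary nuclei. All other classes lay at or below 24.8 CPM in every library. In vascular endothelial-like nuclei Igfbp3 was 3.01-fold higher (2.25 to 4.07) in the running infarct than in the running library and 4.49-fold higher (3.17 to 6.45) in the sedentary infarct than in the sedentary library. In lymphatic endothelial-like nuclei, where the infarct comparisons had under 100 UMIs, the infarct libraries were the 2 lowest. Both infarct libraries lay above both others in each of the 3 vascular clusters, by least in the Lhx6-led one. The Car4-led cluster had 107 CPM in running infarct, 114 in sedentary infarct, 35.4 in running and 29.1 in sedentary nuclei, the arterial cluster (leading genes Gja5 and Sema3g) 136 CPM in running infarct, 98.8 in sedentary infarct, 5.76 in running and 7.17 in sedentary nuclei, and the Lhx6-led cluster 50.6 CPM in running infarct, 112 in sedentary infarct, 44.7 in running and 33.5 in sedentary nuclei. That Gja5-led cluster rests on 43, 33, 209 and 192 nuclei. The thinned share of vascular endothelial-like nuclei with an Igfbp3 UMI was 4.85% in running infarct, 8.52% in sedentary infarct, 2.30% in running and 1.85% in sedentary nuclei. In cardiomyocyte-like nuclei it was 1.29% in running infarct, 0.292% in sedentary infarct, 0.949% in running and 0.531% in sedentary nuclei. Y-positive nuclei had 50.1 CPM in running infarct, 146 in sedentary infarct, 30.4 in running and 28.1 in sedentary nuclei, the smallest separation of the sets, and Y-negative nuclei had 103 CPM in running infarct, 116 in sedentary infarct, 36.7 in running and 19.5 in sedentary nuclei. In fibroblast-like nuclei Igfbp3 was 1.55-fold higher (1.12 to 2.15) in the sedentary infarct than in the sedentary library and did not pass 1.5-fold in Y-negative nuclei, at a log2 ratio of 0.20.

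Igfbp5, a binding protein that attaches to matrix and can hold IGF near cells, was highest in mesothelial-like nuclei, the epicardial surface layer. There it had 671 CPM in running infarct, 711 in sedentary infarct, 2389 in running and 2525 in sedentary nuclei, with the infarct libraries far below the others. It was 3.56-fold lower (3.24 to 3.92) in the running infarct than in the running library and 3.55-fold lower (3.19 to 3.95) in the sedentary infarct than in the sedentary library. After thinning, the share of mesothelial-like nuclei with an Igfbp5 UMI was 35.7% in running infarct, 43.8% in sedentary infarct, 72.4% in running and 79.2% in sedentary nuclei. In cardiomyocyte-like nuclei it was 4.82% in running infarct, 4.68% in sedentary infarct, 3.64% in running and 4.78% in sedentary nuclei. Y-positive nuclei gave 589 CPM in running infarct, 737 in sedentary infarct, 1765 in running and 2260.1 in sedentary nuclei, and Y-negative nuclei 717 CPM in running infarct, 685 in sedentary infarct, 3023 in running and 2983 in sedentary nuclei. Over the alternatives that gave a ratio, the log2 ratio ran from -1.95 to -1.74 in the running and from -1.86 to -1.72 in the sedentary comparison. Those ranges leave out the Y-positive and Y-negative sets, which had too few nuclei for a ratio. Levels in infarct and other libraries lay closer together than these ranges in Y-positive and further apart in Y-negative nuclei. They also leave out the limit of 5% mitochondrial UMIs, which gave no mesothelial-like ratio. Under that limit Igfbp5 had 622 CPM in running infarct and 2283 in sedentary nuclei, with no value in the other libraries. The mesothelial marker list of the class summed to 4886 CPM in running infarct, 5038 in sedentary infarct, 5702 in running and 5663 in sedentary nuclei, and the smooth muscle list to 783 CPM in running infarct, 867 in sedentary infarct, 378 in running and 656 in sedentary nuclei. The class held 203, 129, 105 and 102 nuclei, in a single cluster.

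Elsewhere Igfbp5 followed no common direction. Lymphatic endothelial-like nuclei had 436 CPM in running infarct, 788 in sedentary infarct, 593 in running and 1032 in sedentary nuclei, and endocardial-like nuclei 314 CPM in running infarct, 747 in sedentary infarct, 418 in running and 739 in sedentary nuclei. In both classes the sedentary and sedentary infarct libraries lay above the 2 libraries of mice that had run. Vascular endothelial-like nuclei had 234 CPM in running infarct, 255 in sedentary infarct, 137 in running and 196 in sedentary nuclei, and the running infarct library was 1.71-fold higher (1.47 to 1.99) than the running one. That ratio turned to -0.30 on the log2 scale within the largest cluster and to -0.34 with each library clustered alone. In fibroblast-like nuclei Igfbp5 was 1.74-fold lower (1.46 to 2.08) in the sedentary infarct than in the sedentary library, or -0.53 on the log2 scale in the resting cluster. In macrophage-like nuclei, on 122 and 78 UMIs, it was 1.62-fold lower (1.21 to 2.17) in the running infarct than in the running library and -0.14 on the log2 scale when averaged over nuclei. At finer clustering that log2 ratio was -0.41.

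Igfbp4, which restrains IGF1 until the protease PAPP-A cleaves it, was found in every class. Mesothelial-like nuclei had 76.1 CPM in running infarct, 98.5 in sedentary infarct, 89.1 in running and 127 in sedentary nuclei, and fibroblast-like nuclei 92.6 CPM in running infarct, 66.97 in sedentary infarct, 122 in running and 107 in sedentary nuclei. The 7 classes other than cardiomyocyte-like lay between 36.0 and 127 CPM, each overlapping the next in order. Cardiomyocyte-like nuclei lay below them at 8.25 to 22.5 CPM. In fibroblast-like nuclei Igfbp4 was 1.60-fold lower (1.38 to 1.85) in the sedentary infarct than in the sedentary library, with a log2 ratio of -0.52 in the resting cluster. The running infarct over running ratio there was 0.76 (95% interval 0.667 to 0.864).

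Promoter windows of Igfbp5 and Igfbp7 are set side by side, since Igfbp5 had the largest lower and Igfbp7 the most higher infarct ratios among the binding proteins. They are chr1:72874816-72875115, minus strand, for Igfbp5 and chr5:77407996-77408295, minus strand, for Igfbp7, from the same RefSeq source and build, with capitals for GC box matches.
Igfbp5: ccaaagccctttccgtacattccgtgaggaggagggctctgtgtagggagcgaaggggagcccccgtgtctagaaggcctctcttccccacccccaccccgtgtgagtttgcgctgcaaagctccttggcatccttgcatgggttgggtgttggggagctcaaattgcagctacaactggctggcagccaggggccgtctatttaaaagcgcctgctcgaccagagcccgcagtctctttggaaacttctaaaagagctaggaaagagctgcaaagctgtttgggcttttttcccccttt
Igfbp7: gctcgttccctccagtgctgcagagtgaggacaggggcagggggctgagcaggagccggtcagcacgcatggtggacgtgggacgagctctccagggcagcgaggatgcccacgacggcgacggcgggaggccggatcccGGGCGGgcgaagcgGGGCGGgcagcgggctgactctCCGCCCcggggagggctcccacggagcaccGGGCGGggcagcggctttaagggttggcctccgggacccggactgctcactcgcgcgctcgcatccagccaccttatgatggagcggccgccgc
Igfbp7 held 4 GC boxes, 1 of them on the other strand, and 73.3% G and C. Igfbp5 held no match to any motif searched and 56.3% G and C. The motifs searched were those above, the TATA box TATAAA, held by 13.6% of windows, and the AP-1 site TGANTCA, held by 7.81%. Of the other members with a window, Igf1 held 1 AP-1 site, Igf1r 2 GC boxes, Igfbp4 1 TATA box and Igfbp3 none. Windows were found for 8 of the 9 members.

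The infarct comparisons ask what the ventricles of running and of sedentary mice held 2 weeks after infarction. Counted over classes, 50 member and class pairs could be read in running infarct over running, and 16 were past 1.5-fold, 13 higher and 3 lower. Over all 46614 gene and class pairs, 15.2% were past 1.5-fold, 6.48% higher and 8.69% lower. Of the 13 higher, 8 were Igfbp7. In sedentary infarct over sedentary 42 pairs were read and 12 passed, 8 higher and 4 lower, where 13% of all pairs passed, 6.09% higher and 6.91% lower. Of the 8 higher, 5 were Igfbp7. Both comparisons called Irs2 lower in cardiomyocyte-like nuclei, Igfbp5 lower in mesothelial-like nuclei, and Igf1, Igfbp3 and Igfbp7 higher in vascular endothelial-like nuclei, with no shared library between them. In vascular endothelial-like nuclei 5 of 7 members were higher in running mice, where 5.44% of all genes of the class were, and 3 of 7 in sedentary mice, where 5.30% were. Of those 5, Insr and Igfbp5 turned direction with each library clustered alone. The make-up of the class differed between the libraries, and its part in the count was not tested. In fibroblast-like nuclei of sedentary mice 2 of 9 were higher and 2 lower, where 6.12% and 7.66% of all genes were.

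**Figure D4:**
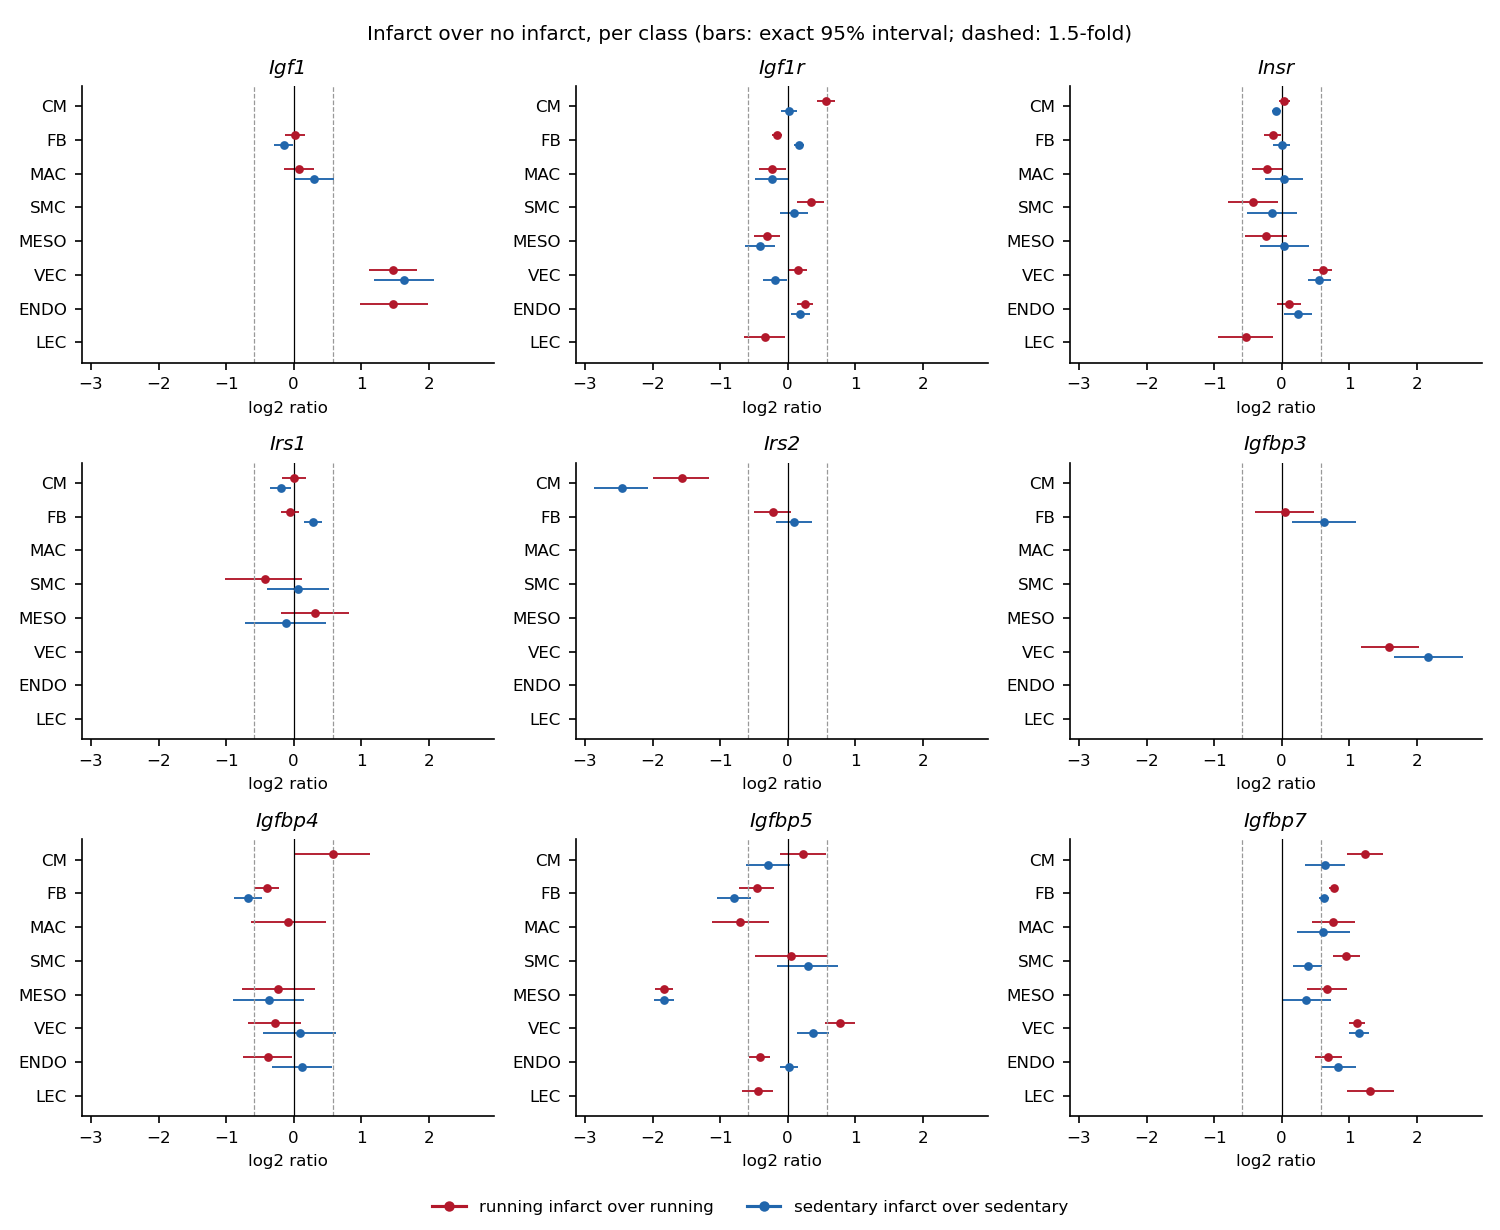
Log2 ratio of infarct over non-infarct CPM for each member and class, in running (red, upper) and sedentary (blue, lower) mice; classes are abbreviated CM, FB, MAC, SMC, MESO, VEC, ENDO and LEC as for the levels, bars are exact 95% intervals and dashed lines mark 1.5-fold. Pairs with under 100 UMIs are not drawn; Igfbp7 lies right of 0 in each class drawn, and Irs2 in CM and Igfbp5 in MESO lie farthest left.

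The comparison of running infarct with sedentary infarct asks what prior running went with in infarcted hearts. Of 45 pairs 6 passed 1.5-fold, 4 higher and 2 lower, where 6.17% of all pairs did, 2.92% higher and 3.25% lower. Irs2 in cardiomyocyte-like nuclei was 1.56-fold higher (1.06 to 2.28) in the running infarct library, on 55 and 60 UMIs, and the log2 ratio was 0.64 in the class, 0.23 in Y-negative nuclei and 0.19 averaged over nuclei. Igfbp7 in cardiomyocyte-like nuclei was 2.14-fold higher (1.74 to 2.62), with a log2 ratio of 0.49 under a limit of 5% mitochondrial UMIs, and the macrophage list in that class summed to 114 CPM in running infarct, 65.7 in sedentary infarct, 60.9 in running and 59.4 in sedentary nuclei. In smooth muscle-like nuclei Igfbp7 was 1.504-fold higher (1.31 to 1.73), at the edge of 1.5-fold, with a log2 ratio of 0.39 averaged over nuclei. Igfbp5 was 1.54-fold higher (1.17 to 2.02) in cardiomyocyte-like nuclei, or 0.41 on the log2 scale in the deep cluster. It was 2.38-fold lower (2.13 to 2.66) in endocardial-like nuclei. The endocardial difference was in the main cluster, led by Nrg1 and Npr3, with 256 CPM in running infarct, 766 in sedentary infarct, 279.6 in running and 389 in sedentary nuclei, but the cluster led by Calcr and Wnt9b had 896 CPM in running infarct, 604 in sedentary infarct, 865 in running and 1492 in sedentary nuclei, the other direction between the infarct libraries. Y-positive endocardial-like nuclei had 412 CPM in running infarct, 210.3 in sedentary infarct, 408 in running and 693 in sedentary nuclei, so the direction also turned there, on 37 Y-positive nuclei in the sedentary infarct library, while Y-negative nuclei had 240.1 CPM in running infarct, 916 in sedentary infarct, 442 in running and 850.2 in sedentary nuclei.

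Without infarction, few members differed in running over sedentary. Of 48 pairs 4 passed, 2 higher and 2 lower, where 5.53% of all pairs did, 3.29% higher and 2.24% lower. Igfbp5 made up 3 of them. It was 1.74-fold lower (1.56 to 1.94) in lymphatic endothelial-like nuclei of the running library and kept past 1.5-fold under all 10 alternatives that gave a value. The limit of 5% mitochondrial UMIs gave no ratio in that class. Igfbp5 was 1.77-fold lower (1.61 to 1.94) in endocardial-like nuclei, or -0.47 on the log2 scale in the main cluster. In macrophage-like nuclei it was 1.75-fold higher (1.14 to 2.75), on 78 and 31 UMIs, with a log2 ratio of 0.47 at finer clustering. The fourth was Igfbp4 in cardiomyocyte-like nuclei, 1.54-fold higher (1.09 to 2.18), on 80 and 63 UMIs, with a log2 ratio of 0.32 averaged over nuclei. Igf1 in fibroblast-like nuclei had a running over sedentary ratio of 0.821 (95% interval 0.75 to 0.899) and in macrophage-like nuclei 1.10 (95% interval 0.89 to 1.35). Insr and Igf1r in cardiomyocyte-like nuclei had ratios of 0.943 (95% interval 0.904 to 0.983) and 0.926 (95% interval 0.859 to 0.998).

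A list of 76 further genes of the pathway shows what surrounded the members. In cardiomyocyte-like nuclei 52 could be read in running infarct over running, of which 1 was higher and 10 lower, with a median log2 ratio of -0.08 against -0.02 over all 7795 genes read, of which 5.26% were higher and 7.24% lower. In sedentary infarct over sedentary 51 were read, 4 higher and 9 lower, where 5.43% of 8593 genes were higher and 5.53% lower. FOXO factors and genes they are known to induce made up 5 of the lower genes in each, of 11 and of 12 read, with median log2 ratios of -0.55 and -0.18. Pdk4, the kinase that holds back pyruvate oxidation and a FOXO-induced gene, had 36.0 CPM in running infarct, 62.8 in sedentary infarct, 411 in running and 281 in sedentary nuclei. It was 11.4-fold lower (9.01 to 14.6) in the running infarct than in the running library and 4.47-fold lower (3.88 to 5.18) in the sedentary infarct than in the sedentary library. Fbxo32, the atrophy-linked ubiquitin ligase gene, had 192 CPM in running infarct, 254 in sedentary infarct, 443 in running and 435 in sedentary nuclei, and was 2.31-fold lower (2.07 to 2.58) in the running infarct than in the running library. Tbc1d4, the AKT substrate that gates glucose transporter traffic, had 606 CPM in running infarct, 578 in sedentary infarct, 939 in running and 1035 in sedentary nuclei, and Socs2, an inhibitor of growth hormone signalling, had 225 CPM in running infarct, 266 in sedentary infarct, 138 in running and 122 in sedentary nuclei. Against the sedentary library, the sedentary infarct one was 1.79-fold lower (1.70 to 1.88) for Tbc1d4 and 2.17-fold higher (1.97 to 2.39) for Socs2. The shallow Nppa-led cluster weighed differently in the libraries, and its part in these ratios was not tested.

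In fibroblast-like nuclei 60 of the 76 were read in the running comparison, 11 higher and 6 lower, and 59 in the sedentary one, 7 higher and 2 lower. Over all genes of the class 7.05% were higher and 8.97% lower in the running comparison, and 6.12% and 7.66% in the sedentary one. The Col11a1-led cluster made up 53.96% of the class in running infarct, 34.4% in sedentary infarct, 1.83% in running and 1.40% in sedentary nuclei, and its part in these ratios was not tested. Higher ones included inhibitors of the receptors. Grb14, an adaptor that blocks the insulin receptor kinase, had 134 CPM in running infarct, 91.9 in sedentary infarct, 32.1 in running and 35.6 in sedentary nuclei, and Enpp1, an ectoenzyme that inhibits the insulin receptor, had 219 CPM in running infarct, 204 in sedentary infarct, 59.9 in running and 59.2 in sedentary nuclei. Both infarct libraries lay above both others for each gene. Grb14 was 4.17-fold higher (3.52 to 4.95) in the running and 2.58-fold higher (2.16 to 3.09) in the sedentary comparison, and Enpp1 was 3.65-fold higher (3.22 to 4.14) and 3.45-fold higher (3.03 to 3.94). Among lower genes Igfbp6, a binding protein that prefers IGF2, had 28.1 CPM in running infarct, 33.5 in sedentary infarct, 65.0 in running and 44.7 in sedentary nuclei in fibroblast-like and 116 CPM in running infarct, 138 in sedentary infarct, 423 in running and 350.1 in sedentary nuclei in mesothelial-like nuclei. Bcl6, a transcriptional repressor, was 2.35-fold lower (2.05 to 2.70) and Htra1, a secreted protease that cleaves IGFBP proteins, was 2.56-fold lower (1.98 to 3.34) in the sedentary comparison. In vascular endothelial-like nuclei Htra1 was 2.77-fold lower (1.83 to 4.35) in the sedentary infarct than in the sedentary library. Pdk4 in fibroblast-like nuclei had 8.06 CPM in running infarct, 18.7 in sedentary infarct, 19.9 in running and 20.5 in sedentary nuclei, lowest in the running infarct library.

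In mesothelial-like nuclei Pappa, the gene of the protease PAPP-A that cleaves IGFBP4 and IGFBP5, had 333 CPM in running infarct, 161 in sedentary infarct, 99.6 in running and 115 in sedentary nuclei. The running infarct library was 3.34-fold higher (2.51 to 4.51) than the running one and 2.07-fold higher (1.66 to 2.59) than the sedentary infarct one. In endocardial-like nuclei Ghr, the growth hormone receptor gene, had 4004 CPM in running infarct, 2496 in sedentary infarct, 967 in running and 1020.3 in sedentary nuclei. It was 4.14-fold higher (3.94 to 4.36) in the running infarct than in the running library, 2.45-fold higher (2.30 to 2.61) in the sedentary infarct than in the sedentary library and 1.60-fold higher (1.53 to 1.68) in the running infarct than in the sedentary infarct library. The endocardial marker list moved with it, at 28352 CPM in running infarct, 21199 in sedentary infarct, 12755 in running and 12138 in sedentary nuclei, and its part in the result was not tested. Grb10, an adaptor that inhibits both receptors, had 529 CPM in running infarct, 371 in sedentary infarct, 240.5 in running and 292 in sedentary nuclei in endocardial-like and 424 CPM in running infarct, 332 in sedentary infarct, 222 in running and 272 in sedentary nuclei in mesothelial-like nuclei. Txnip, a FOXO-induced inhibitor of glucose uptake, had 76.0 CPM in running infarct, 131 in sedentary infarct, 156 in running and 186 in sedentary nuclei in endocardial-like nuclei. In macrophage-like nuclei Sorl1, a sorting receptor that returns insulin receptor to the cell surface in mouse fat, was 6.99-fold higher (3.45 to 16.5) in the running infarct than in the running library, on 142 and 8 UMIs, in a class whose make-up differed between the libraries. Without infarction the only further gene named was Igf2r, the receptor that clears IGF2, which was 1.83-fold lower (1.58 to 2.13) in lymphatic endothelial-like nuclei of the running library.

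The genes whose pattern was most like each member were ranked by Pearson's r of log2(CPM + 1) over 32 profiles (8 classes in 4 libraries) among 13363 genes. The profiles share libraries and depth, so r describes the pattern only. Igf1 was most like Tnfrsf1b (r 0.91), Cndp2 (0.90) and Bin1 (0.90). Igf1r was most like Sox5 (0.88), Src (0.88) and Pde1a (0.86). Insr followed the cardiac sarcomere genes Actc1 (0.91) and Tnni3 (0.89) and Dhrs7c (0.91). Irs1 was nearest to the mesenchymal genes Prrx1 (0.90) and Lama2 (0.89) and to Tead3 (0.89). For Irs2 the nearest were Ppp1r9a (0.88), Adamtsl5 (0.82) and Ppfibp2 (0.80). Igfbp3 was nearest to Rai14 (0.86), Ccdc88c (0.84) and Nav3 (0.84), and Igfbp4 to Arf4 (0.91), Cyb5a (0.90) and Prkd3 (0.89). Igfbp5 was nearest to Pkhd1l1 (0.94), a lymphatic endothelial marker on the lists used, Megf6 (0.94) and Wdr17 (0.93). Igfbp7 was nearest to the matrix gene Sparc (0.90), Plekhg2 (0.90) and Ccdc102a (0.89).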

How the data were processed

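Raw UMI counts per gene and barcode were deposited by the authors as 1 matrix per library, made per the labels with a 10x Genomics 3' kit on sorted nuclei; Cell Ranger 7.1 and the build GRCm39 are listed in the submitters' processing notes. No cell annotation was used. A barcode was kept from 300 genes upwards and up to 20% mitochondrial UMIs. Scrublet's automatic threshold called 0 doublets, so the highest scores were removed at 0.8% per 1000 barcodes (192, 82, 301 and 228 in the running infarct, sedentary infarct, running and sedentary libraries). Counts scaled to 10000 were clustered in scanpy 1.11.5 on 3000 variable genes without the 9 members, 40 components, 15 neighbours and Leiden resolution 1, giving 20 clusters. Clusters were named from marker lists, needing a mean log2 excess of at least 1 and 3 markers detected. Clusters whose doublet score had a median from 0.1 upwards (1906 nuclei, mixed) and clusters of low depth (1950) stayed unnamed.

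CPM were computed from counts summed per class and library. Intervals are exact Poisson for levels, exact conditional binomial for ratios and Clopper-Pearson for shares (scipy 1.17.1), at 95%, and cover counting error only. Since a group is 1 library, nothing was tested. The scripts were tested on simulated data. Thinned shares leave out nuclei under 1000 UMIs, 219, 66, 141 and 104 of them in the vascular endothelial-like class and 70, 21, 13 and 23 in the cardiomyocyte-like class.

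The members and all lists were chosen with earlier results of these data known. The members were named in every described class. Other pathway genes were named where the interval lay wholly beyond 1.5-fold, at most the 2 highest and 2 lowest per class and comparison, and like genes were the 3 with the highest r among genes with at least 200 UMIs. A gene that this rule would name is not reported here.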

Additional observations from a re-analysis of the deposited data

Results flagged for a closer look

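Some members had a ratio above 1 in one pair of libraries and below 1 in the matching pair, each with a 95% counting interval that leaves out 1. With 1 library per group none of these differences was tested. The infarct ratio of Igf1r in fibroblast-like nuclei was -0.16 on the log2 scale in running mice (running infarct over running) and 0.17 in sedentary mice (sedentary infarct over sedentary). In vascular endothelial-like nuclei the infarct ratio of Igf1r was 0.15 in running and -0.18 in sedentary mice.

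Counting only pairs whose 95% counting intervals both leave out a ratio of 1, on opposite sides, the running ratio changed sign between hearts with and without infarct in 4 cases, again untested. For Igf1r in cardiomyocyte-like nuclei it was 0.44 with infarct (running infarct over sedentary infarct) and -0.11 without (running over sedentary). Irs2 in the same class had 0.64 with infarct and -0.25 without. In fibroblast-like nuclei Igf1r had -0.17 with infarct and 0.16 without, and Irs1 had -0.18 with infarct and 0.15 without. Among these values only the 0.64 of Irs2 is past 1.5-fold, and it rests on 55 and 60 UMIs.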

How the results depend on the processing

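Of 185 member ratios that could be counted, 38 were past 1.5-fold. Only 2 to 4 classes per comparison gave ratios at no more than 5% mitochondrial UMIs. Under every alternative that gave a value 35 of the 38 kept their direction and 15 stayed past 1.5-fold. The 3 that turned were in running infarct over running: Igfbp7 in macrophage-like nuclei at -0.18 (log2) with Leiden resolution 2, Insr in vascular endothelial-like nuclei at -0.22 with each library clustered alone, and Igfbp5 in vascular endothelial-like nuclei at -0.34 with each library clustered alone and -0.30 in the largest cluster. The cause was not tested.

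Counts past 1.5-fold moved with the filters, partly because fewer or more pairs can be read. For running infarct over running (16 of 50) they were 5 of 14 at no more than 5% mitochondrial UMIs, 27 of 68 from 20 UMIs on, 8 of 27 from 500 UMIs on and 3 of 8 in Y-positive nuclei. For sedentary infarct over sedentary (12 of 42) they were 7 of 18, 21 of 60, 7 of 24 and 2 of 8 under the same settings. For running infarct over sedentary infarct (6 of 45) they were 2 of 24, 13 of 59, 2 of 26 and 0 of 6, and also 3 of 40 with at least 800 genes and 10 of 43 with each library clustered alone. For running over sedentary (4 of 48) they were 1 of 11, 8 of 66, 2 of 28 and 2 of 22, and also 2 of 43 with each library clustered alone and 1 of 24 in Y-negative nuclei. The other counts stayed within 1.5 times. Size factors shifted all genes by -0.12 in endocardial-like nuclei in running infarct over running.

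Leaving out the macrophage-like cluster near the doublet limit, added after the data were seen, changed no infarct count. Of 288 levels at the 5% limit 125 moved by less than their interval, 82 moved and 81 had no value. Unthinned shares moved in 255 of 288 cases. At Leiden resolution 2 a Ccr2-rich macrophage cluster and a Cthrc1-rich fibroblast cluster stayed unnamed, so those classes there are resting nuclei for the most part. No paired analysis was possible because each group has 1 library. Depth limits Irs2, Igfbp3 and Igfbp4 outside their main classes.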
